A study of Rattus norvegicus with 24 samples.

Results

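The comparison described here set spinal cord taken 56 days after a clip injury against sham-operated spinal cord, across all genes of a rat expression array. Its members were chosen by their titles alone: the 4 arrays titled as injured at 8 weeks and the 4 arrays titled as sham, 8 of the 24 arrays of the series. The day 56 rats were female Wistar rats that had a laminectomy at T6 to T8 and then a 35 g aneurysm clip closed on the cord at T7 for 1 min, with RNA taken from the injury epicenter after 8 weeks. The sham rats, called so in their titles, were female Wistar rats that a figure legend of the study describes as laminectomized. The study's methods do not state from which level their tissue came, and the treatment text of the labels describes the clip for them too. Those methods name 4 sham rats for each time point, whereas the series holds 4 sham arrays in all. The sampling day of the sham rats was not given in the sources used here, so that 8 weeks of ageing and of healing of the laminectomy may separate them from the day 56 rats. The remaining 16 arrays were 4 each from days 1, 3, 7 and 14 after the same injury. No age was given for any group, each array stood for one rat, and no rat was sampled at 2 times. Thus every p-value below measures the spread between rats of one experiment.

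Clip compression of the cord kills neurons and glia at the epicenter, strips axons of myelin and opens the tissue to blood-borne leukocytes. In the weeks that follow, macrophages derived from microglia and blood monocytes fill the lesion and take up myelin debris, astrocytes form a dense border, and fibroblast-like cells lay down collagen in the core. By 8 weeks a rat cord with such an injury is usually regarded as chronic: a cavity and a glial and fibrotic scar have formed, while lipid-filled phagocytes persist for long after.

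All values are on the log2 scale of the deposited array values, where a difference of 1 is a 2-fold difference. Each gene was represented by one probe set, and 14218 genes were tested. The 27 bacterial control probe sets on these arrays, which rat RNA should not bind, averaged 2.68 to 2.81 on the day 56 arrays and 2.71 to 2.87 on the sham arrays. The highest of them had a group mean of 3.19 on the day 56 arrays and 3.25 on the sham arrays. A gene whose group mean was at or under this level is given here as being at the control level, and its fold difference as a lower bound ("at least"). Such a bound sets the group mean to the control level, and it is not strict where single rats lay above that level. Replicate arrays correlated at 0.9914 to 0.9951 among the day 56 rats and at 0.9921 to 0.995 among the sham rats. Markers of spinal cord were far above the control level in both groups: Mbp, which encodes a myelin protein, averaged 15.01 on the day 56 arrays and 15.35 on the sham arrays, and Gfap, the astrocyte filament, 14.87 and 14.74. Slc6a5, the glycine transporter of inhibitory neurons, was at the control level in both groups (2.33 and 2.38) and so gave no check of the tissue. In the time course the labelled day 3 arrays stood apart. For 1371 genes their mean lay at least 1 outside the range of the day 1 and day 7 means. For 79 genes the day 7 mean lay as far outside those of day 3 and day 14. That second count has day 3 as one of its bounds, so it cannot show how unusual the first is. The study describes a reversal on day 3 for many transcripts as a biphasic pattern. The arrays are used as labelled. Besides the day courses given at the end, the day 3 arrays enter the choice of probe set and the spread behind every call, since the model was fitted to all arrays. Leaving out one day 3 rat gave 4534 to 4578 genes called between day 56 and sham, against 4563. With only the compared groups fitted, 4820 were called.

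Injured cord differed broadly from sham cord at 8 weeks. With limma and Benjamini-Hochberg adjustment at 0.05, 4563 genes (32.1%) were called, 2296 higher (16.1%) and 2267 lower (15.9%) in the day 56 rats, and the median change over all genes was -0.015. A change of at least 1 in addition was found for 1085 higher genes (7.63%) and 923 lower genes (6.49%), and a change of at least 3 for 165 higher and 71 lower genes. For 5182 genes no day 56 value overlapped a sham value (36.4%). These shares are the background for every count of a gene group below. In bulk tissue of this kind, more or fewer cells of a type and more or less RNA per cell cannot be told apart.

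The most increased gene was Ifitm1, which is described with the interferon-stimulated genes, and Cd68 came next. Cd68, a glycoprotein of the lysosomes of macrophages, had log2 values of 11.37, 11.88, 11.80 and 11.70 in the day 56 rats and 1.43, 3.11, 2.05 and 5.18 in the sham rats. All 4 injured rats were alike, the sham rats were spread widely, and the groups were far apart: 8.75 ± 0.64 (SE), with a limma adjusted p of 1.76e-08. Setting the sham mean to the control level gives a 346-fold difference. That is no strict minimum, since sham replicate 4, at 5.18, lay above the control level. Mmp12, the macrophage elastase, had 9.88, 11.31, 10.30 and 10.15 in the day 56 rats, against 3.29, 3.15, 2.99 and 3.19 in the sham rats, at least 143-fold higher (adjusted p = 8.12e-07). Fabp4, a fatty acid carrier of macrophages and adipocytes, had 9.10, 11.44, 10.14 and 10.35 in the day 56 rats and 3.33, 3.07, 3.10 and 3.12 in the sham rats, at least 128-fold higher. Both genes were at the control level in every sham rat or close to it, and both were highest in day 56 replicate 2. Of the other genes among the 15 most increased, 5 had a sham mean at the control level: Plbd1, a lysosomal protein related to phospholipase B (at least 138-fold higher), Lilrb4, an inhibitory receptor of myeloid cells (at least 111-fold), Cd14, the lipopolysaccharide co-receptor (at least 82.6-fold), Folr2, the folate receptor beta (at least 80.1-fold), and Ccl2, the chemokine that attracts monocytes (at least 66.6-fold). The rest were Ms4a6bl1 (6.45), Apobec1, which edits apolipoprotein B mRNA (6.30), Arl11 (6.28), Bcl2a1, an anti-apoptotic Bcl-2 relative of leukocytes (6.21), the receptor Clec7a (5.94) and Cd300c2, a receptor of myeloid cells (5.89). Cd300c2 rested on 3 of the 4 injured rats, with 10.96, 10.74, 4.19 and 11.62, against 3.52, 2.89, 3.68 and 3.86 in the sham rats.

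The most decreased gene was Scd, the stearoyl-CoA desaturase that makes monounsaturated fatty acids. Its values were 3.34, 3.78, 3.02 and 3.04 in the day 56 rats and 9.95, 10.02, 10.12 and 8.64 in the sham rats, so that it was near the control level after injury and well above it in sham cord (-6.39 ± 0.59, adjusted p = 2.68e-07). Next in order came Gabrb2, a GABA-A receptor subunit (at the control level in the day 56 rats, at least 27.8-fold lower), Pvalb, the calcium-binding protein parvalbumin of fast-spiking neurons (-4.65), Ankrd34b (-4.61) and Slc32a1, which loads GABA and glycine into vesicles. Slc32a1 was 18.3-fold lower with its day 56 mean set to the control level, which day 56 replicate 3 exceeded. Of the other most decreased genes, Rims1 organises synaptic vesicle release (at least 9.03-fold lower), Kcnip4 binds potassium channels (-4.35), Rgs7bp anchors regulators of G protein signalling (-4.28), Lynx1 modulates nicotinic receptors (-4.42), and Nrg1 encodes neuregulin 1, a growth factor that neurons present to glia (-3.87). Fdft1, the squalene synthase of cholesterol synthesis (-4.17), stood among them too, as did Hecw1 (-4.29), Slc7a10, an amino acid transporter (at least 10.7-fold lower), Hhatl (at least 17.8-fold lower) and Creg2 (at least 13.2-fold lower).

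**Figure D1:**
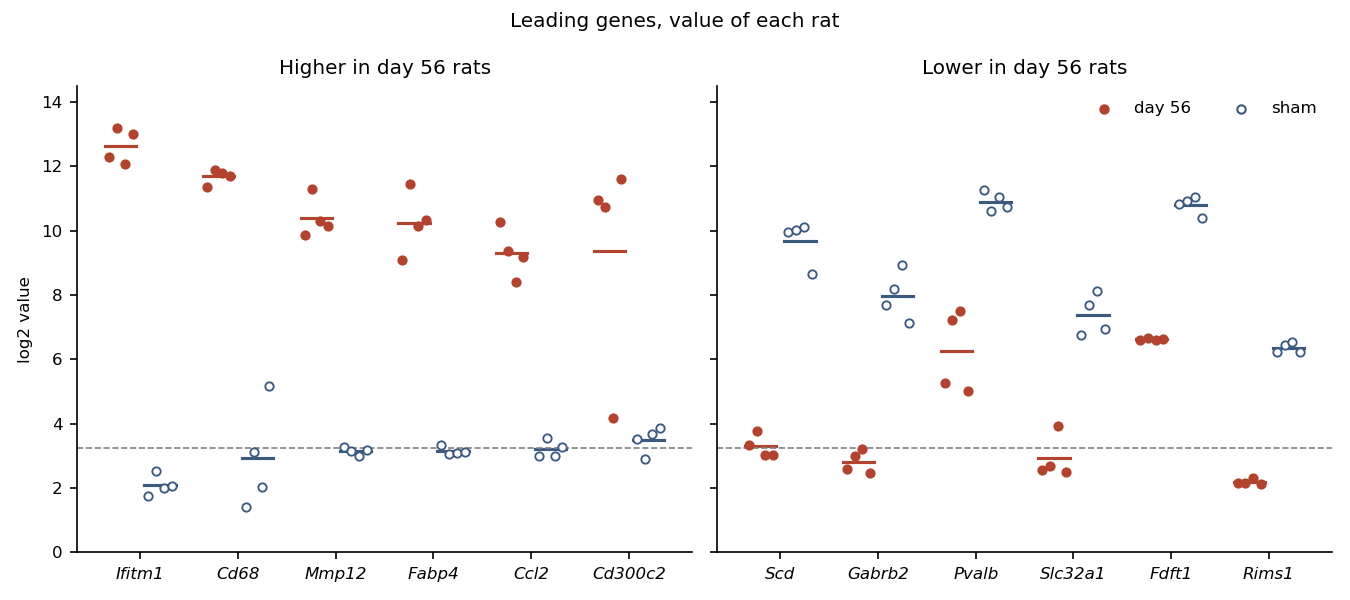
Log2 value of each rat (points) and group mean (bars) for 6 increased and 6 decreased genes, with day 56 (filled) left of sham (open) in each pair and the dashed line at the highest bacterial control probe set. In Cd300c2 day 56 replicate 3, at 4.19, lies just above the sham rats, while its other day 56 rats lie above 10.

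The phagocyte genes were examined as groups. Of 16 measured members of the macrophage and microglia core, 14 rose and none fell, with a median change of 2.19. Besides Cd68, these included Mrc1, the mannose receptor (5.28 ± 0.58), Ptprc, the leukocyte tyrosine phosphatase CD45 (3.19 ± 0.40), Lyz2, lysozyme (2.87 ± 0.28), Aif1, the Iba1 protein of microglia and macrophages (1.99 ± 0.29) and Itgam, the integrin alpha chain CD11b (1.64 ± 0.46). The scavenger receptor for haemoglobin, Cd163, was at the control level in both groups (2.80 and 2.68). The mean of the 16 members was 9.91, 9.91, 9.93 and 9.95 in the day 56 rats and 6.11, 7.09, 6.56 and 7.49 in the sham rats. Thus the injured rats were almost identical, while sham replicate 1 was lowest and sham replicate 4 highest, and the difference between groups exceeded both spreads.

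Genes that microglia induce around damage and lipid rose as a set. Of 19 measured members, 17 rose and none fell (median 2.43). Clec7a, the receptor dectin-1, had values between 12.16 and 12.41 in the day 56 rats, against 3.92, 7.26, 5.83 and 8.24 in the sham rats (5.94 ± 0.62, adjusted p = 1.16e-06). Trem2, the lipid receptor of microglia, had 11.05, 11.18, 11.16 and 10.83 in the day 56 rats and 6.98, 8.13, 7.22 and 7.85 in the sham rats (3.51 ± 0.36). Again no injured rat was near any sham rat, and the sham replicates 2 and 4 held the higher sham values. Gpnmb, a transmembrane glycoprotein of lipid-laden phagocytes, rose by 3.97 ± 0.53 to a mean of 15.19 in the day 56 rats, against 11.21 in the sham rats. Lpl, lipoprotein lipase (4.82 ± 0.66), Lgals3, galectin-3 (2.68 ± 0.27), Igf1 (2.43 ± 0.52), Spp1, osteopontin (1.82 ± 0.31), and Apoe, the main lipid carrier of the nervous system (1.04 ± 0.09), were higher as well. Cst7, a cystatin of activated microglia, was at the control level in both groups.

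The genes that mark resting microglia behaved differently from one another. Of 10 measured, 5 rose and none fell. P2ry12, the purine receptor of microglial processes, averaged 10.88 in the day 56 rats and 10.53 in the sham rats (0.35 ± 0.28, adjusted p = 0.43). Tmem119 averaged 7.74 in the day 56 rats and 8.36 in the sham rats (-0.62 ± 0.40, adjusted p = 0.298), and Cx3cr1, the fractalkine receptor, averaged 8.96 in the day 56 rats and 8.25 in the sham rats (0.71 ± 0.34, adjusted p = 0.133). Csf1r, the growth factor receptor that microglia need (1.16 ± 0.21), and Gpr34 (1.28 ± 0.23) rose. Olfml3 (3.79 ± 0.65) and Cd33 (2.18 ± 0.25) rose further. Changes in this list ran from -0.62 to 3.79 with a median of 0.985, and the largest, that of Olfml3, exceeded that of Trem2 (3.51).

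Receptors for antibody and the oxidase that phagocytes use to make superoxide were all but one higher, 8 of 9 (median 2.57). Cybb, the catalytic subunit of the oxidase, rose by 5.77 ± 0.62, its cytosolic partner Ncf1 by 4.11 ± 0.53, and the high-affinity receptor for IgG, Fcgr1a, by 2.53 ± 0.40. Of 13 complement genes 9 rose and none fell. The genes that build the first component of the classical pathway, C1qa (2.49 ± 0.22), C1qb (2.84 ± 0.21) and C1qc (3.50 ± 0.35), rose, the anaphylatoxin receptor C3ar1 by 3.16 ± 0.38 and the inhibitor Serping1 by 3.12 ± 0.56. C3, the central component of the cascade, averaged 10.52 in the day 56 rats and 11.03 in the sham rats (-0.51 ± 0.63, adjusted p = 0.649). Among 9 genes for the recognition of dying cells, 6 rose and 2 fell. The receptors Axl (2.80 ± 0.30) and Mertk (1.97 ± 0.21) rose, as did Pros1, a ligand of this receptor family though not of every member (2.07 ± 0.30). The third receptor of the family, Tyro3 (-0.89 ± 0.29), and Mfge8, a bridging protein (-1.30 ± 0.20), fell, Tyro3 not without day 56 replicates 1 or 2 or sham replicate 2 (limma adjusted p of 0.0587 to 0.07).

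The handling of lipid in phagocytes and the lysosome moved the same way. Of 20 measured lipid-handling genes, 17 rose and none fell (median 2.30). Soat1, which esterifies cholesterol for storage, had 11.15, 11.29, 11.31 and 11.37 in the day 56 rats and 7.22, 8.36, 7.26 and 8.45 in the sham rats (3.46 ± 0.33, adjusted p = 4.41e-07). Plin2, the coat protein of lipid droplets (2.28 ± 0.22), Abca1 (2.62 ± 0.43) and Abcg1 (1.70 ± 0.20), the exporters of cholesterol, Nr1h3, the oxysterol sensor LXR alpha (2.75 ± 0.33), Ch25h, which makes an oxysterol (2.75 ± 0.37), Cd36, a scavenger receptor (3.29 ± 0.83), and Apoc1 (4.25 ± 0.69) rose with it. Of 29 measured lysosome genes, 24 rose and 1 fell (median 1.68). Ctsk, cathepsin K, a protease that degrades collagen, had 11.72, 12.47, 12.02 and 12.28 in the day 56 rats, against 6.84, 6.73, 6.67 and 6.74 in the sham rats (5.37 ± 0.45). Ctsb (1.90 ± 0.18), Ctsd (1.68 ± 0.17) and Lgmn (2.32 ± 0.20) rose by less, and the membrane proteins Lamp1 (0.67 ± 0.12) and Lamp2 (0.44 ± 0.10) least among the genes named here. The mean of the 29 genes was 12.34 to 12.47 in the day 56 rats, against 10.18 to 10.88 in the sham rats. Hmox1, the haem oxygenase that frees iron from haem, rose by 5.07 ± 0.58, with 9.97, 10.27, 10.08 and 10.01 in the day 56 rats and 2.59, 6.10, 6.16 and 5.19 in the sham rats. Of the 13 iron and haem genes with it, 4 rose and 1 fell, the last being Tfrc, the transferrin receptor (-1.43 ± 0.23).

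**Figure D2:**
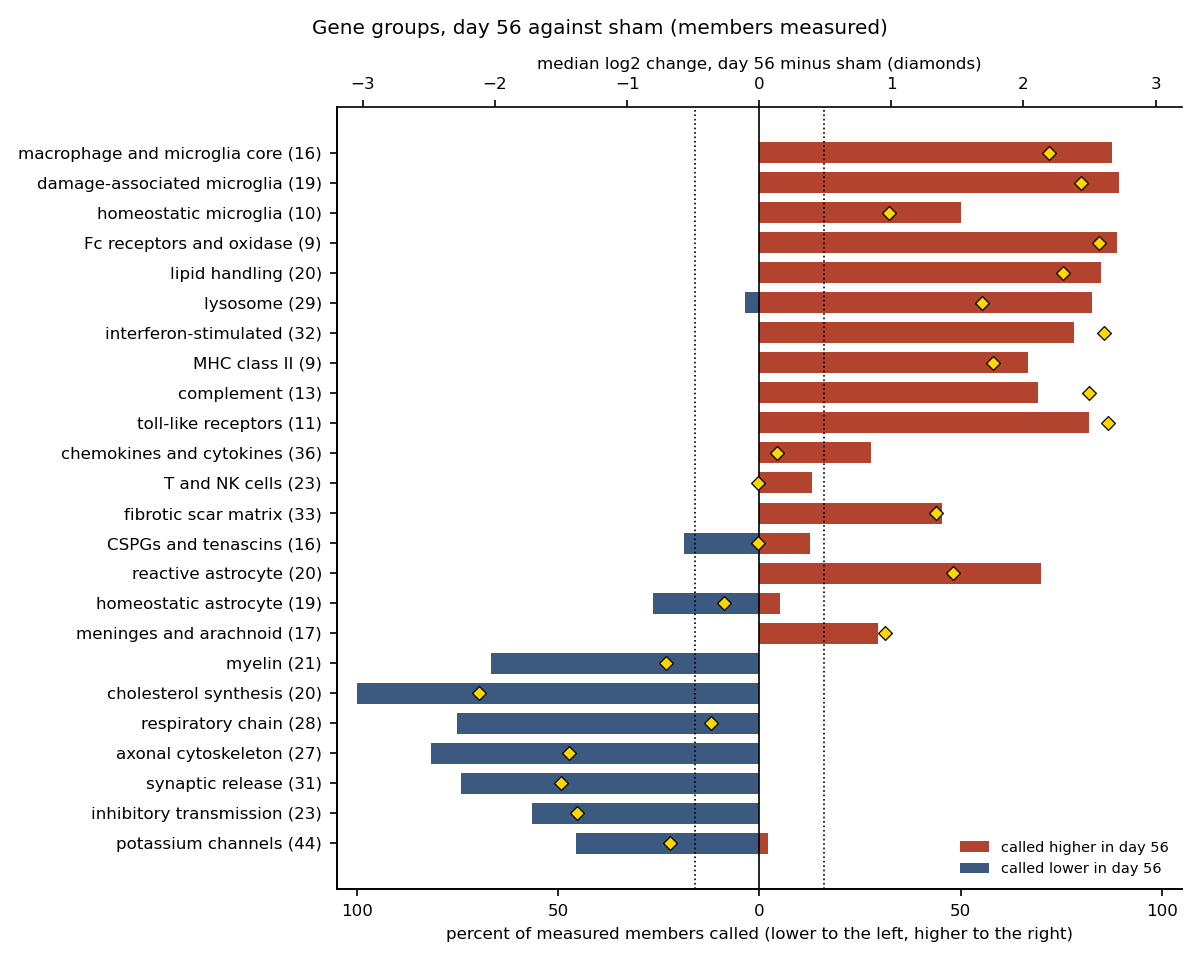
Number of measured members of 24 gene groups called higher (right) or lower (left) in day 56 rats against sham rats as a percent of the group, with the group's median log2 change as a diamond on the upper axis. The dotted lines mark the 16.1% higher and 15.9% lower of all 14218 genes, and in the cholesterol synthesis group all 20 members were called lower.

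A programme of interferon-stimulated genes was present at 8 weeks. Of 32 measured members 25 rose and none fell, with a median change of 2.61, and the 2 groups of rats did not overlap for 25 members. Interferons act through receptors on nearly every cell type to switch on antiviral genes, many of which carry a short response element in their promoters. Ifitm1, whose product blocks the entry of viruses, had 12.29, 13.19, 12.07 and 13 in the day 56 rats and 1.75, 2.54, 1.99 and 2.05 in the sham rats. It had the largest change among all 14218 genes on this array (10.56 ± 0.39, at least 669-fold, adjusted p = 1.05e-12). Ifitm1 was highest in day 56 replicate 2, and its mean was already 13.3 on day 1. Rsad2, viperin, had 11.16, 10.85, 9.71 and 12.07 in the day 56 rats and 5.22, 4.61, 5.66 and 7.82 in the sham rats (5.12 ± 0.82). Mx1, an antiviral GTPase, had 11.09, 9.66, 8.80 and 11.45 in the day 56 rats, against 4.78, 5.04, 4.76 and 7.57 in the sham rats (4.71 ± 0.69). In both genes day 56 replicates 1 and 4 were highest and replicate 3 lowest, and sham replicate 4 was highest of the sham rats. Isg15, a ubiquitin-like protein (3.85 ± 0.75), Irf7, the amplifying transcription factor (3.37 ± 0.58), Ifit3 (3.39 ± 0.75), Usp18, which removes Isg15 (2.92 ± 0.50), and Gbp2, a guanylate-binding protein (2.92 ± 0.34), also rose. Cxcl10, a chemokine for T cells, was spread over the injured rats, with 8.11, 5.15, 4.25 and 9.22, and was at the control level in all sham rats, with 1.99, 1.78, 1.87 and 2.41. Ifit1 was at the control level in both groups. The mean of the 32 genes was 8.82, 8.03, 7.67 and 8.74 in the day 56 rats and 5.57, 5.67, 5.48 and 6.16 in the sham rats, so that injured rats 1 and 4 stood above rats 2 and 3, and all 4 above every sham rat.

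Promoter sequence was read for these genes from RefSeq (rat assembly GRCr8), in windows of 250 bases before to 50 bases after the annotated start, which were held for 10919 of the 14218 genes. The core of the interferon-stimulated response element was searched as GAAANNGAAA on both strands. It was found in 13 of the 17 windows of higher interferon-stimulated genes (76.5%) and in 327 of all 10919 windows (2.99%). A match describes the letters of the window and not a bound site. Since many genes of such a list are known to carry the element, its share says nothing about day 56. Other motifs were searched in the same way. The PU.1 motif GAGGAAGT was in 0 of 10 windows of higher macrophage core genes, against 2.48% of all windows. The CLEAR motif TCACGTGA was in 2 of 20 windows of higher lysosome genes, against 1.5% of all. The windows of 4 of the genes above are shown, 5′ to 3′ along the gene's strand in lower case with the match in capitals, because the same core lies in each at a different distance before the start. Those of Ifit3 (chr1:241527076-241527375, + strand, change 3.39), Irf7 (chr1:205799974-205800273, - strand, change 3.37), Gbp2 (chr2:234005477-234005776, + strand, change 2.92) and Rsad2 (chr6:48788071-48788370, - strand, change 5.12) read as follows.
Ifit3: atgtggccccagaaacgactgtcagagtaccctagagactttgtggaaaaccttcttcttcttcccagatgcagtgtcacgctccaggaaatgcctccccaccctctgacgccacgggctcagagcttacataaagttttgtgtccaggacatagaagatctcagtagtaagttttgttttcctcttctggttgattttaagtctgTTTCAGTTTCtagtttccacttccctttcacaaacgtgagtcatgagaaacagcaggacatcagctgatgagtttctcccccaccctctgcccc
Irf7: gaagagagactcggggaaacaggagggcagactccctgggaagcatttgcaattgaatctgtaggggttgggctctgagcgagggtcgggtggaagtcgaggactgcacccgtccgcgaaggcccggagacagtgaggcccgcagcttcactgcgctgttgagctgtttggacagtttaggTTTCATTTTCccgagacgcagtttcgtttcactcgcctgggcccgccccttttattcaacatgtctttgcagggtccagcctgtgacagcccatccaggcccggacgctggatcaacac
Gbp2: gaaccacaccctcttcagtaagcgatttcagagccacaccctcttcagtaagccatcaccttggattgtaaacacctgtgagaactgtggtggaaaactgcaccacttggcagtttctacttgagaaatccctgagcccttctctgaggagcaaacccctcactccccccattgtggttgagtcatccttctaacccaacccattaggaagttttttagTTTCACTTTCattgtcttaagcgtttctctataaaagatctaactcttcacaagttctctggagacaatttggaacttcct
Rsad2: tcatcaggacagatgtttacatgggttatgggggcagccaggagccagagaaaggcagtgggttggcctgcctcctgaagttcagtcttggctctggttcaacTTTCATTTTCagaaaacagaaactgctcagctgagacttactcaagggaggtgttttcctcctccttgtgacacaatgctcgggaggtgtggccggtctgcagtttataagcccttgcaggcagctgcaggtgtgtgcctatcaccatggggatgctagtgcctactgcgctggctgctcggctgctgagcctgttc
The first capital lay 44 bases before the start in Ifit3, 69 in Irf7, 31 in Gbp2 and 147 in Rsad2. The core was not found in the window of Mx1, and no window was held for Ifitm1.

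Antigen presentation by class II molecules followed a different order of rats. Of 9 measured genes, 6 rose and none fell (median 1.77). RT1-Db1, a class II beta chain, had 10.91, 8.57, 9.06 and 6.12 in the day 56 rats and 4.43, 6.14, 6.17 and 6.98 in the sham rats (2.73 ± 0.89, adjusted p = 0.0241). RT1-Da had 12.42, 10.50, 11.05 and 9.34 in the day 56 rats, against 7.07, 9.46, 9.39 and 9.36 in the sham rats (2.01 ± 0.62, adjusted p = 0.0177). In both genes the groups overlapped, since day 56 replicate 4 lay among the sham rats and sham replicate 1 lay well below its group. RT1-Da was not called without day 56 replicate 1 or without sham replicate 1 (limma adjusted p of 0.0812 and 0.0829), nor RT1-Db1 without day 56 replicates 1 or 3 or sham replicate 1 (0.0568 to 0.107), and 3 of the 9 genes passed without day 56 replicate 1, as without sham replicate 1. Cd74, the invariant chain, had the same shape and was not called (1.08 ± 0.51, adjusted p = 0.129), and Ciita, the class II transactivator, was at the control level in both groups. Of 13 class I and immunoproteasome genes, 7 rose and none fell. Psmb8 (3.68 ± 0.48) and Psmb9 (2.95 ± 0.43), the interferon-inducible subunits of the proteasome, rose most, and B2m, the light chain of class I, rose by 0.80 ± 0.11.

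Of 36 measured chemokines, cytokines and receptors, 10 rose and none fell (median 0.13), and 17 were at the control level in both groups, among them Il1b (2.08 and 2.09), Tnf (2.70 and 2.69), Il1rn and Ccr2. Those that rose included Ccl2, with 10.28, 9.38, 8.42 and 9.18 in the day 56 rats and 2.99, 3.57, 2.99 and 3.28 in the sham rats, Cxcl16, a scavenger receptor and chemokine in one (3.50 ± 0.70), Ccl6 (4.48 ± 0.62), Tgfb1 (2.29 ± 0.39) and the pair of Cxcl12 (4.18 ± 0.94) and its receptor Cxcr4 (3.80 ± 0.48). Cxcl12 had 11.90, 12.66, 10.98 and 12.65 in the day 56 rats, against 7.96, 7.72, 7.73 and 8.07 in the sham rats. Of 11 genes for toll-like receptors and their partners 9 rose, with Cd14 (at the control level in the sham rats) and Ly96 (3.84 ± 0.32), which present lipopolysaccharide to the receptor Tlr4 (2.64 ± 0.40), and with Tlr7, a sensor of RNA (2.92 ± 0.31). Of 17 leukocyte adhesion genes 10 rose and none fell, with Icam1, the ligand of leukocyte integrins, at 8.68, 9.0, 8.58 and 9.39 in the day 56 rats and 3.75, 5.62, 4.76 and 5.65 in the sham rats (3.97 ± 0.50), and its partner chains Itgb2 (3.34 ± 0.51) and Itgal (3.34 ± 0.40).

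Markers of lymphocytes and granulocytes changed little. Of 23 T and NK cell genes 3 rose and 18 were at the control level in both groups. Cd3d and Cd3g were at the control level and Cd3e averaged 5.46 in the day 56 rats and 5.21 in the sham rats (adjusted p = 0.36). The 3 that rose were Cd4 (2.93 ± 0.40), which rat macrophages also carry, Cd8b, at the control level in the sham rats (at least 2.85-fold higher), and Cd8a, at 7.12, 6.72, 6.35 and 6.68 in the day 56 rats and 2.81, 2.77, 2.78 and 2.72 in the sham rats (at least 11-fold higher). Only one of the 3 probe sets of Cd8a was called, and Cd8b passed with every rat and without day 56 replicate 4, but not without any other single rat (adjusted p of 0.0534 to 0.078). In the B cell list 1 gene of 10 rose, the adaptor Blnk (2.50 ± 0.25), with Ms4a1, Cd79b and Jchain at the control level. In the neutrophil list 1 gene of 9 rose, the growth factor receptor Csf3r (1.62 ± 0.58), while S100a8 (4.12 in day 56 rats and 4.24 in sham rats) and S100a9 (4.29 and 4.18) did not pass, and Csf3r was not called without day 56 replicates 1, 3 or 4 or sham replicates 1 or 4 (adjusted p of 0.0764 to 0.148). None of 10 mast cell genes passed, and Cma1 and Tpsb2 were at the control level in both groups.

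**Figure D3:**
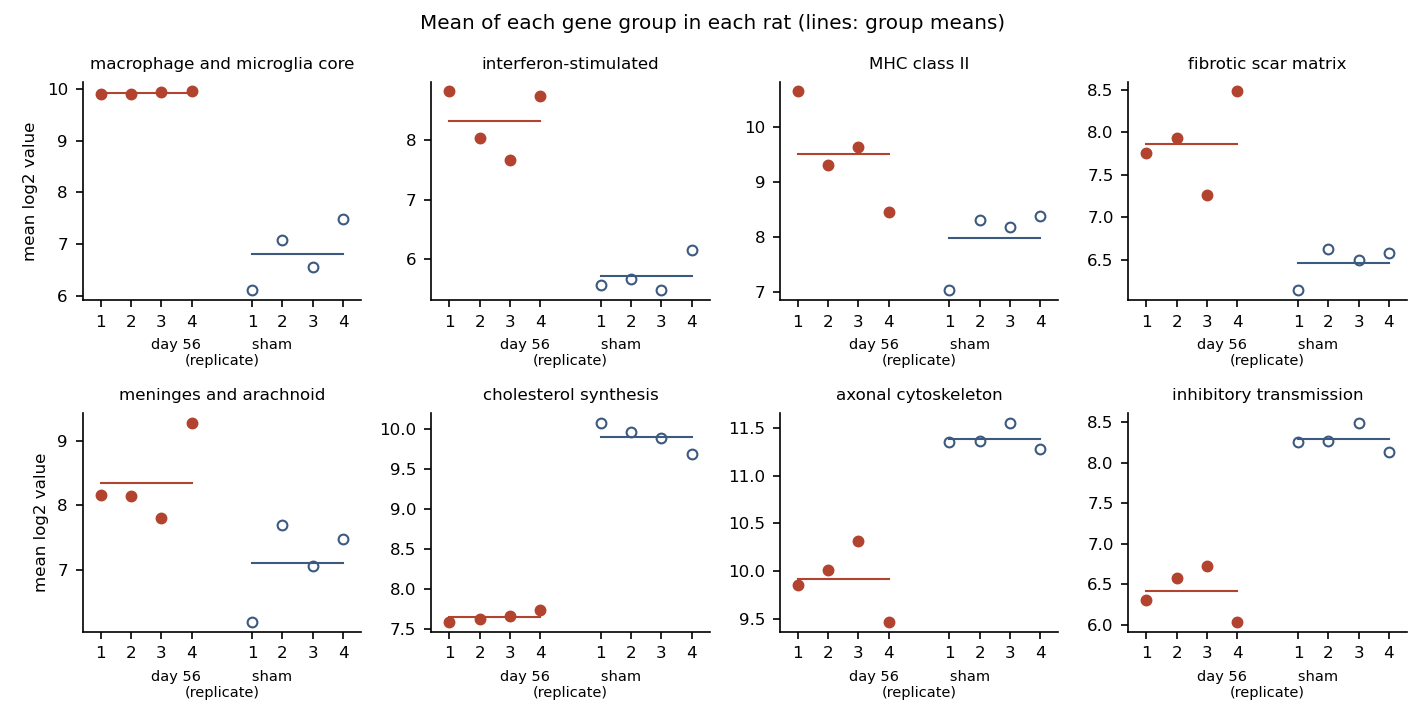
Mean log2 value of the measured members of 8 gene groups in each rat, with the 4 day 56 rats (filled) left of the 4 sham rats (open) and replicate numbers beneath the points. The macrophage and cholesterol means are tight among day 56 rats, whereas interferon genes are highest in replicates 1 and 4, class II genes are highest in replicate 1, scar matrix and meninges genes are highest in replicate 4, and the neuronal means are lowest in replicate 4.

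Every measured gene of cholesterol synthesis was lower at 8 weeks. All 20 members fell, 19 of them by at least 1, the 2 groups of rats did not overlap for any of the 20, and the median change was -2.12, against 15.9% of all genes called lower. In the nervous system cholesterol is made on site, mostly by oligodendrocytes and astrocytes, since lipoproteins of the blood do not cross the barrier, and the transcription factor SREBP-2 raises the enzymes when sterols are short. Fdft1, the squalene synthase, had 6.59, 6.66, 6.62 and 6.62 in the day 56 rats and 10.83, 10.91, 11.04 and 10.38 in the sham rats (-4.17 ± 0.54, adjusted p = 1.11e-05). Idi1, which isomerises isopentenyl diphosphate, had 8.81, 8.61, 8.66 and 8.53 in the day 56 rats, against 12.12, 11.91, 11.88 and 11.70 in the sham rats (-3.25 ± 0.26). Sqle, the squalene epoxidase, was more scattered, with 5.18, 6.86, 7.50 and 7.68 in the day 56 rats and 10.10, 10.11, 10.57 and 9.75 in the sham rats (-3.33 ± 0.38). In each the highest injured rat lay more than 2 log2 units under the lowest sham rat. Further down the path Cyp51 (-2.26 ± 0.26), Msmo1 (-2.45 ± 0.22), Nsdhl (-1.81 ± 0.15), Hsd17b7 (-2.40 ± 0.32) and Tm7sf2 (-3.41 ± 0.48), which remodel the sterol ring, fell too, as did Acat2, which makes acetoacetyl-CoA (-2.94 ± 0.27), and the sterol sensor Insig1 (-2.15 ± 0.26). The smallest change of the list was that of Ebp, a sterol isomerase (-0.43), and the factor Srebf2 itself was at -1.49, both named after their values were seen. Ebp was not called without day 56 replicates 1, 2 or 3 or sham replicates 1 or 2 (limma adjusted p of 0.0597 to 0.153), which left 19 lower genes in those fits.

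Srebf1, which encodes the related factor SREBP-1 of fatty acid synthesis, went the other way. Its values were 11.76, 11.91, 11.33 and 12.01 in the day 56 rats and 8.45, 9.34, 8.74 and 9.48 in the sham rats, a rise of 2.75 ± 0.21 (adjusted p = 3.26e-08) with both of its probe sets higher. Scd, a known target of SREBP-1 in liver, was the most decreased gene of the array, as given above. The sterol regulatory element was searched in the same promoter windows as TCACNCCAC on both strands. It was found in none of the 16 windows held for lower cholesterol genes and in 124 of all 10919 (1.14%), which says only that these letters are not in those windows. The mean of the 20 cholesterol genes was 7.59, 7.63, 7.66 and 7.74 in the day 56 rats and 10.07, 9.96, 9.88 and 9.68 in the sham rats. Myelin genes moved with it by less, as follows, and their part in the cholesterol result was not tested.

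**Figure D4:**
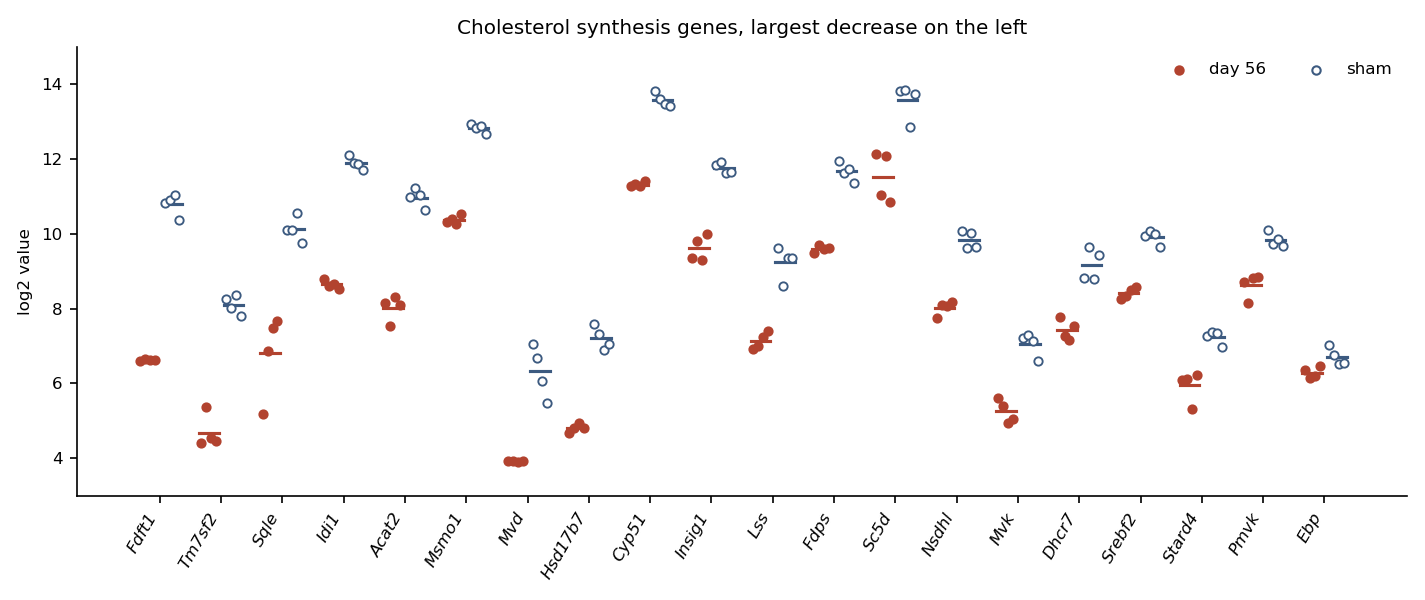
Log2 value of each rat for all 20 measured genes of cholesterol synthesis, ordered by their change, with day 56 rats (filled) left of sham rats (open) for each gene. In every gene the 4 day 56 points lie under the 4 sham points, with the narrowest gap in Ebp.

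Of 21 measured myelin genes, 14 fell and none rose, with a median change of -0.71. Mbp, myelin basic protein, had 14.96, 15.08, 14.97 and 15.03 in the day 56 rats and 15.41, 15.25, 15.42 and 15.34 in the sham rats (-0.34 ± 0.06). Mag (-0.92 ± 0.16), Mobp (-0.83 ± 0.18) and Mog, with 11.51 to 11.68 in the day 56 rats and 12.56 to 12.76 in the sham rats (-1.07 ± 0.27), fell further. The largest decreases of the list were those of Ugt8, which makes galactosylceramide (-1.84 ± 0.30), and Fa2h, the fatty acid 2-hydroxylase (-1.68 ± 0.25). In the oligodendrocyte lineage list of 12 genes 6 fell and 3 rose, and the 3 became 1 without day 56 replicates 1 or 4 or sham replicates 1 or 3. The lineage factors Olig1 (-0.90 ± 0.26) and Sox10 (-0.68 ± 0.20) and the enzyme Enpp6 of newly formed oligodendrocytes (-1.56 ± 0.33) fell, whereas Pdgfra, the receptor of the precursors (0.98 ± 0.35), and Cspg4, the NG2 proteoglycan (1.60 ± 0.29), rose. Olig1 was not called without sham replicate 3 (adjusted p = 0.0522, limma), Sox10 not without day 56 replicate 1 or sham replicate 3 (0.0612 and 0.0513), and Pdgfra only with every rat, without day 56 replicate 3 or without sham replicate 4 (otherwise 0.0626 to 0.139). Peripheral myelin genes were mixed, with 4 of 17 higher and 1 lower, and the 4 became 2 without day 56 replicates 1 or 4 or sham replicate 3. Egr2, the transcription factor of myelinating Schwann cells and of activated macrophages, rose by 3.41 ± 0.47. Prx, periaxin, which Schwann cells make, was set by one rat, with 9.14, 8.18, 7.08 and 10.56 in the day 56 rats and 7.14, 7.31, 7.12 and 7.08 in the sham rats (1.58 ± 0.52, adjusted p = 0.0261), and it was not called without day 56 replicates 1 or 4 or sham replicates 1, 3 or 4 (0.0517 to 0.12).

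Genes of synapses, axons and transmitters were counted in 5 lists, none of which held a higher gene. The synaptic release list had 23 of 31 genes lower (median -1.50), the neurofilament and axonal cytoskeleton list 22 of 27 (median -1.44), the inhibitory transmission list 13 of 23 (median -1.38), the glutamate list 14 of 28 (median -0.71) and the neuropeptide list 14 of 27 (median -0.76), against 15.9% of all genes. The 14 neuropeptide genes became 9 without day 56 replicate 2 or sham replicate 3 and 8 without day 56 replicate 4. Slc32a1 had 2.56, 2.69, 3.94 and 2.50 in the day 56 rats, against 6.76, 7.70, 8.14 and 6.93 in the sham rats, 18.3-fold lower with the day 56 mean set to the control level. Chat, the enzyme that makes acetylcholine in motor neurons, had 2.54, 2.54, 2.52 and 2.44 in the day 56 rats and 4.91, 5.56, 5.80 and 4.94 in the sham rats (at least 4.34-fold lower, adjusted p = 3.79e-08). Rims1 had values from 2.13 to 2.31 in the day 56 rats and from 6.22 to 6.54 in the sham rats. For these 3 genes the injured cord was at the control level, in all 4 rats for Chat and Rims1 and in 3 of 4 for Slc32a1.

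Other neuronal genes stayed above the control level and differed more between injured rats. Nefl, the light neurofilament chain, had 12.07, 12.56, 12.95 and 10.92 in the day 56 rats and 14.38, 14.41, 14.78 and 14.27 in the sham rats (-2.34 ± 0.81, adjusted p = 0.0347). Nefh, the heavy chain, fell short of the threshold (-2.46 ± 0.93, adjusted p = 0.054), although the change was of the same size. Kif5a, a motor protein of axonal transport (-3.08 ± 0.65), Snap25, of the vesicle fusion machinery (-1.80 ± 0.66), Syn1, synapsin (-2.57 ± 0.44), and Map2, the dendritic microtubule protein (-0.99 ± 0.34), passed. Near the threshold, Nefl was not called without day 56 replicates 1 or 4 or any one sham rat (adjusted p of 0.0538 to 0.119), Map2 not without day 56 replicates 1, 2 or 4 or sham replicates 2, 3 or 4 (0.0588 to 0.114), and Snap25 only with all 8 rats (0.0517 to 0.132 without one). The mean of the 27 cytoskeleton genes was 9.85, 10.01, 10.32 and 9.47 in the day 56 rats, against 11.28 to 11.55 in the sham rats. Replicate 4 was lowest and replicate 3 highest of the injured rats in this mean, in the synaptic mean (6.66, 6.95, 7.0 and 6.46) and in the inhibitory mean (6.31, 6.58, 6.73 and 6.04).

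Among inhibitory genes Gad2 (-2.13 ± 0.36) fell, and Gad1, the other enzyme that makes GABA, had 8.24, 8.67, 9.07 and 7.87 in the day 56 rats and 10.50, 10.76, 11.02 and 10.52 in the sham rats without passing (-2.24 ± 0.87, adjusted p = 0.0621). Slc12a5, the chloride exporter KCC2 that keeps GABA inhibitory (-2.38 ± 0.82), and the importer Slc12a2 (-1.12 ± 0.17) both fell, KCC2 not without any one rat other than day 56 replicate 3 (adjusted p of 0.0504 to 0.103, limma). Glra2, a glycine receptor subunit, was at the control level in the day 56 rats and fell at least 8.73-fold. On the excitatory side Slc17a6, the vesicular glutamate transporter (-3.13 ± 0.97), and the NMDA receptor subunits Grin1 (-2.59 ± 0.34) and Grin2a (-2.55 ± 0.47) were lower, Slc17a6 not without day 56 replicate 4 (adjusted p = 0.0701, limma), and Gria2, the AMPA receptor subunit, did not pass (-0.98 ± 0.38, adjusted p = 0.0638). Calca, which encodes the peptide CGRP of motor and sensory neurons, had 6.50, 5.42, 6.89 and 5.50 in the day 56 rats and 10.82, 9.17, 9.99 and 9.72 in the sham rats (-3.85 ± 0.80), with one of its 3 probe sets called. Sst, somatostatin (-1.52 ± 0.42), Tac1, the substance P precursor (-1.47 ± 0.54), and Npy (-0.85 ± 0.23) fell, whereas Penk, the enkephalin precursor (-1.69 ± 0.70, adjusted p = 0.0802), and Pdyn (-0.33 ± 0.46) did not pass, nor did Tac1 when any one of the 8 rats was left out (0.0506 to 0.144).

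Ion channels showed the same direction with exceptions. Of 44 potassium channel genes 20 fell and 1 rose, of 13 sodium channel genes 6 fell and 1 rose, and of 19 calcium channel genes 7 fell. Of the 19 calcium channel genes, 13 were at the control level in both groups, so that not all of the 7 calls lay above it. With dim probe sets left out, 13 potassium and 3 calcium channel genes were called lower. Scn1a, a sodium channel of fast-spiking neurons (-3.59 ± 1.12), Kcnc1, the Kv3.1 channel of the same neurons (-3.79 ± 0.85), Kcnk1 (at the control level in the day 56 rats, at least 6.8-fold lower) and Cacna2d1, the subunit bound by gabapentin (-1.86 ± 0.35), were lower, Scn1a not without day 56 replicate 4 (limma adjusted p = 0.0779). Scn7a, a sodium-sensing channel of glia, had 11.46, 12.19, 10.11 and 12.31 in the day 56 rats and 8.75, 8.89, 7.77 and 8.51 in the sham rats (3.04 ± 0.69), and Kcnn4, the calcium-activated channel of leukocytes, rose by 2.79 ± 0.41. Among 22 serotonin receptor and descending-system genes 2 fell and 1 rose. The 2 became 1 whichever day 56 rat was left out. Htr2c, the receptor on motor neurons, had 7.59, 7.77, 9.27 and 6.50 in the day 56 rats and 11.39, 11.18, 11.58 and 11.23 in the sham rats (-3.57 ± 1.01), while Htr2b, known from peripheral cells and microglia, had 7.46, 7.49, 7.94 and 7.57 in the day 56 rats and 2.97, 3.12, 3.29 and 2.34 in the sham rats, at least 20.5-fold higher. Subunits of the mitochondrial respiratory chain were lower in 21 of 28 cases and higher in none, but by small amounts (median -0.36), with Ndufa8 (-1.10 ± 0.12) and Ndufs1 (-0.90 ± 0.12) lowest of those named.

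Astrocyte genes were counted in 2 lists, of reactive and of homeostatic genes. Gfap had 14.78, 15.04, 14.80 and 14.87 in the day 56 rats and 14.63, 14.74, 14.76 and 14.85 in the sham rats, so that the groups overlapped and it was not called (0.13 ± 0.14, adjusted p = 0.586). Aqp4, the water channel of astrocyte end-feet (14.76 in day 56 rats and 14.78 in sham rats), and Glul, glutamine synthetase (14.51 and 14.52), were not called either. Of 20 genes of reactive astrocytes 14 rose and none fell (median 1.47), including Vim, vimentin, with 14.44 to 14.86 in the day 56 rats and 11.99 to 13.18 in the sham rats (1.91 ± 0.17), Cp, ceruloplasmin (2.49 ± 0.25), and Nes, nestin (1.80 ± 0.26). Vim is also made by fibroblasts and phagocytes. Of 19 homeostatic genes 5 fell and 1 rose, the last being Slc7a11, the cystine and glutamate exchanger (1.00 ± 0.28). Slc7a10, the transporter of D-serine, was at the control level in the day 56 rats (2.61 to 2.73) and at 6.25 to 7.03 in the sham rats (at least 10.7-fold lower, adjusted p = 4.6e-11). Kcnj10, the potassium channel Kir4.1 (-2.89 ± 0.48), and Slc1a2, the glutamate transporter GLT-1 (at the control level in the day 56 rats, at least 4.44-fold lower), fell, while Slc1a3, the related transporter GLAST, did not pass (0.32 ± 0.21, adjusted p = 0.331).

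The fibrotic matrix was higher, and it varied among injured rats more than the phagocyte genes did. Of 33 measured members 15 rose and none fell (median 1.34). Col1a1, a chain of type I collagen, had 11.04, 11.63, 10.35 and 12.02 in the day 56 rats and 7.74, 9.33, 8.89 and 9.32 in the sham rats (2.44 ± 0.75, adjusted p = 0.0173). Col3a1 had 12.05, 12.79, 11.29 and 13.11 in the day 56 rats, against 8.76, 10.11, 10.004 and 10.16 in the sham rats, and was not called (2.55 ± 1.08, adjusted p = 0.0865) although no values overlapped. Day 56 replicate 4 was highest and replicate 3 lowest in both, and Col1a1 was not called without day 56 replicate 4 or without sham replicate 1 (0.0579 and 0.0642). Fn1, fibronectin (1.54 ± 0.41), Col6a1 (2.85 ± 0.67), Pcolce, which promotes collagen processing (2.90 ± 0.79), and Loxl2, a crosslinking oxidase (2.71 ± 0.59), rose, and Postn, periostin, did not (3.91 in day 56 rats and 3.04 in sham rats, adjusted p = 0.449). Of 8 small leucine-rich proteoglycans 5 rose, Lum with 10.56, 10.27, 9.71 and 11.42 in the day 56 rats and 7.55, 8.46, 7.96 and 8.38 in the sham rats (2.40 ± 0.70, with an adjusted p of 0.0502 without day 56 replicate 4), while Dcn, decorin, did not pass (1.65 ± 1.03, adjusted p = 0.28). Of 17 genes of meninges and arachnoid 5 rose and none fell, among them Slc6a13, a GABA transporter of leptomeninges, with 8.39, 8.86, 8.15 and 10.05 in the day 56 rats and 4.25, 6.83, 6.29 and 6.83 in the sham rats. The mean of those 17 was 8.16, 8.14, 7.80 and 9.28 in the day 56 rats and 6.19, 7.69, 7.05 and 7.47 in the sham rats, in the same order of injured rats as the mean of the 33 matrix genes (7.76, 7.93, 7.26 and 8.48, against 6.14 to 6.63 in sham rats) except that replicates 1 and 2 changed places. Igfbp2 (1.40 ± 0.45) passed, though not without day 56 replicates 1 or 4 or sham replicates 1 or 3 (0.0505 to 0.078), and Aldh1a2, Crabp2, Gjb2 and Ptgds, the other markers that define this list, did not. The 5 meninges genes became 3 without day 56 replicates 1 or 4 or sham replicate 1, and the 5 proteoglycans 2 without day 56 replicate 4 or sham replicate 1. The part of meningeal tissue in the matrix result was not tested.

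Chondroitin sulfate proteoglycans, which inhibit axon growth in the scar, showed no common direction: 2 of 16 rose, 3 fell and the median change was -0.007. Cspg4 and the hyaluronan receptor Cd44 (2.08 ± 0.19) rose, Ncan, neurocan (1.20 ± 0.76, adjusted p = 0.289), and Tnc, tenascin C (1.43 ± 0.54, adjusted p = 0.0529), did not pass, and the link proteins of perineuronal and nodal matrix, Hapln4 (-3.19 ± 0.60) and Hapln2 (-2.14 ± 0.40), fell. Of 25 matrix proteases and their inhibitors 9 rose and 1 fell. After Mmp12 came Mmp2, at least 8.23-fold higher, Timp1 (2.49 ± 0.37) and the membrane-bound Mmp14 (1.94 ± 0.35), whereas Mmp9 and Mmp3 were at the control level in both groups. Plau, the urokinase that activates plasminogen, had 8.92 to 9.08 in the day 56 rats and 3.48 to 3.90 in the sham rats (5.31 ± 0.58), and its receptor Plaur, at the control level in the sham rats, was at least 3.6-fold higher.

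Vessels and red cells differed less. Of 25 endothelial and barrier genes 3 rose and 4 fell (median -0.16), and the 4 became 2 without day 56 replicate 4 or sham replicate 1. Cldn5 and Pecam1 did not pass, the 3 that rose were Icam1, Vcam1 and Eng, which leukocyte recruitment and repair also use, and Abcb1a, the efflux pump of the barrier (-0.56 ± 0.20), fell, but not without day 56 replicates 1, 3 or 4 or sham replicates 1, 3 or 4 (adjusted p of 0.0516 to 0.144). Vegfa, the endothelial growth factor, had 6.09, 5.64, 6.44 and 6.59 in the day 56 rats, against 8.14, 7.95, 8.45 and 8.15 in the sham rats (-1.99 ± 0.30). Hbb, beta globin, had 13.22, 13.29, 12.65 and 12.82 in the day 56 rats, against 14.45, 14.20, 14.27 and 13.47 in the sham rats (-1.10 ± 0.31), and Alas2, the haem synthesis enzyme of red cell precursors, had 3.45, 3.34, 2.97 and 3.29 in the day 56 rats and 7.30, 5.77, 6.18 and 4.75 in the sham rats (-2.74 ± 0.95, not called without any one rat but sham replicate 4, 0.0553 to 0.113). These were the 2 of 6 measured red cell genes called, both highest in sham replicate 1, which was also the sham rat with the lowest macrophage mean, and the part of blood in the tissue in the other results was not tested. Of 34 proliferation genes 9 rose and none fell (median 0.28), with Mki67 at 7.57, 6.30, 6.97 and 6.18 in the day 56 rats and 5.23, 4.92, 5.08 and 4.68 in the sham rats (1.78 ± 0.44) and the replication helicase subunit Mcm6 at least 4.86-fold higher. Of 21 immediate-early and stress factors 9 rose, led by Atf3 (5.43 ± 0.42). Of 21 axon growth genes 5 rose and 1 fell, and Gap43 (-0.15 ± 0.26) and Sprr1a, at the control level, did not pass.

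A narrower question is what still moved between 2 and 8 weeks, with no sham array in the contrast. Only 48 genes were called between day 56 and day 14 at the same threshold (27 higher and 21 lower at day 56), 31 of them with a change of at least 1 (0.218% of all genes), and 2210 had an unadjusted p under 0.05. The 31 became 20 without day 56 replicate 4, 15 without day 14 replicate 1 and 18 without day 14 replicate 2, and they were 5 with only the compared groups fitted, 19 with the replicate block, and 2 by the methods' t-test with adjustment (116 without). The largest decreases were in scar matrix: Postn averaged 3.91 in the day 56 rats and 8.71 in the day 14 rats (-4.80, adjusted p = 0.00233), and Tnc 5.44 in the day 56 rats and 9.74 in the day 14 rats (-4.31, adjusted p = 0.000724). Trh, thyrotropin-releasing hormone (-2.30), Tnfrsf12a, the receptor of the cytokine TWEAK (-2.34), and the cell cycle genes Cdk1 (-2.39) and Ccnb2 (-2.31) were lower as well, as were Hacd1 (-1.02) and Tlcd3a (-1.03). The largest increase was in Coch, an extracellular matrix protein of the inner ear and of meningeal fibroblasts, which averaged 8.95 on day 56 and 4.58 on day 14 (4.37, adjusted p = 0.0214). Coch had 8.03, 8.67, 9.06 and 10.03 in the day 56 rats and 5.42, 8.00, 6.82 and 8.09 in the sham rats, which overlapped (adjusted p = 0.0905), so that its level on day 56 was above that of day 14 and not called apart from that of sham. Inhbb, a subunit of inhibins and activins, and Aox1, an aldehyde oxidase, were higher on day 56 (means of 4.52 and 4.05) than on day 14, when both were at the control level.

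For 16 genes (0.113%) the day 56 level differed in one direction from sham and from each of days 1, 3, 7 and 14, with a change of at least 1 against sham, and 14 of them were higher. Day means follow the order sham, day 1, day 3, day 7, day 14 and day 56. Srebf1 had 9.0, 8.67, 7.09, 9.28, 10.27 and 11.76, so that its mean was lowest on day 3 and highest at 8 weeks. Mgst1, a microsomal glutathione transferase, had 11.72, 12.22, 10.68, 12.08, 12.09 and 12.96, and Rragd, a GTPase that signals amino acids from the lysosome, had 5.92, 5.38, 3.91, 6.38, 6.43 and 7.91. Asgr1, a lectin best known from liver, had 4.16, 4.24, 3.22, 3.88, 4.31 and 6.50, and Calml4, a calmodulin-like protein, had 4.06, 3.45, 3.11, 3.56, 4.79 and 6.91. In both, no earlier mean came within 2 log2 units of day 56. Ecrg4, a secreted protein of choroid plexus and leptomeninges, had 6.06, 4.15, 4.31, 4.33, 5.99 and 8.45, with means under that of sham in the first week and above it at 8 weeks. Cidea, a lipid droplet protein of adipocytes, was at the control level until day 14 and averaged 4.21 on day 56 (4.20, 4.08, 3.93 and 4.63), at least 1.94-fold above sham. Sulf1, which trims heparan sulfate, averaged 5.01 on day 56 and 3.08 on day 14, and Bdh2, a short-chain dehydrogenase, 5.47 on day 56 and 4.26 on day 14. Ano1, Aspg, Eppk1, Moxd1 and Selenbp1 made up the rest of the higher genes. These 5 had sham means at the control level and day 56 means under 5, so their fold differences were bounds of at least 1.43, 1.02, 1.28, 1.99 and 2.52, and day 56 replicate 4 was the highest rat in all but Eppk1. Without day 14 replicate 1, 9 of the 16 genes were found, and no other gene. With only the compared groups fitted 2 genes were found, 1 of them among the 16, and by the methods' t-test with adjustment 0 (70 without adjustment, at p under 0.05).

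Nsdhl and Vgf were the genes lower on day 56 than at every other time. Nsdhl, a sterol dehydrogenase of the cholesterol path, averaged 9.84 in sham cord, 9.04, 9.96, 9.02 and 8.79 on days 1, 3, 7 and 14, and 8.03 on day 56, with 7.76, 8.09, 8.07 and 8.18 in the 4 day 56 rats and 10.07, 9.63, 10.02 and 9.65 in the sham rats. It is the member of the cholesterol group for which the decrease between 2 and 8 weeks passed the test (-0.76 ± 0.15, adjusted p = 0.0275). Vgf, a neuronal secreted peptide precursor, averaged 8.53 in sham cord, 11.65, 12.46, 9.66 and 9.28 on days 1, 3, 7 and 14, and 7.09 on day 56, so its mean lay above that of sham at each earlier time and below it at 8 weeks.

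**Figure D5:**
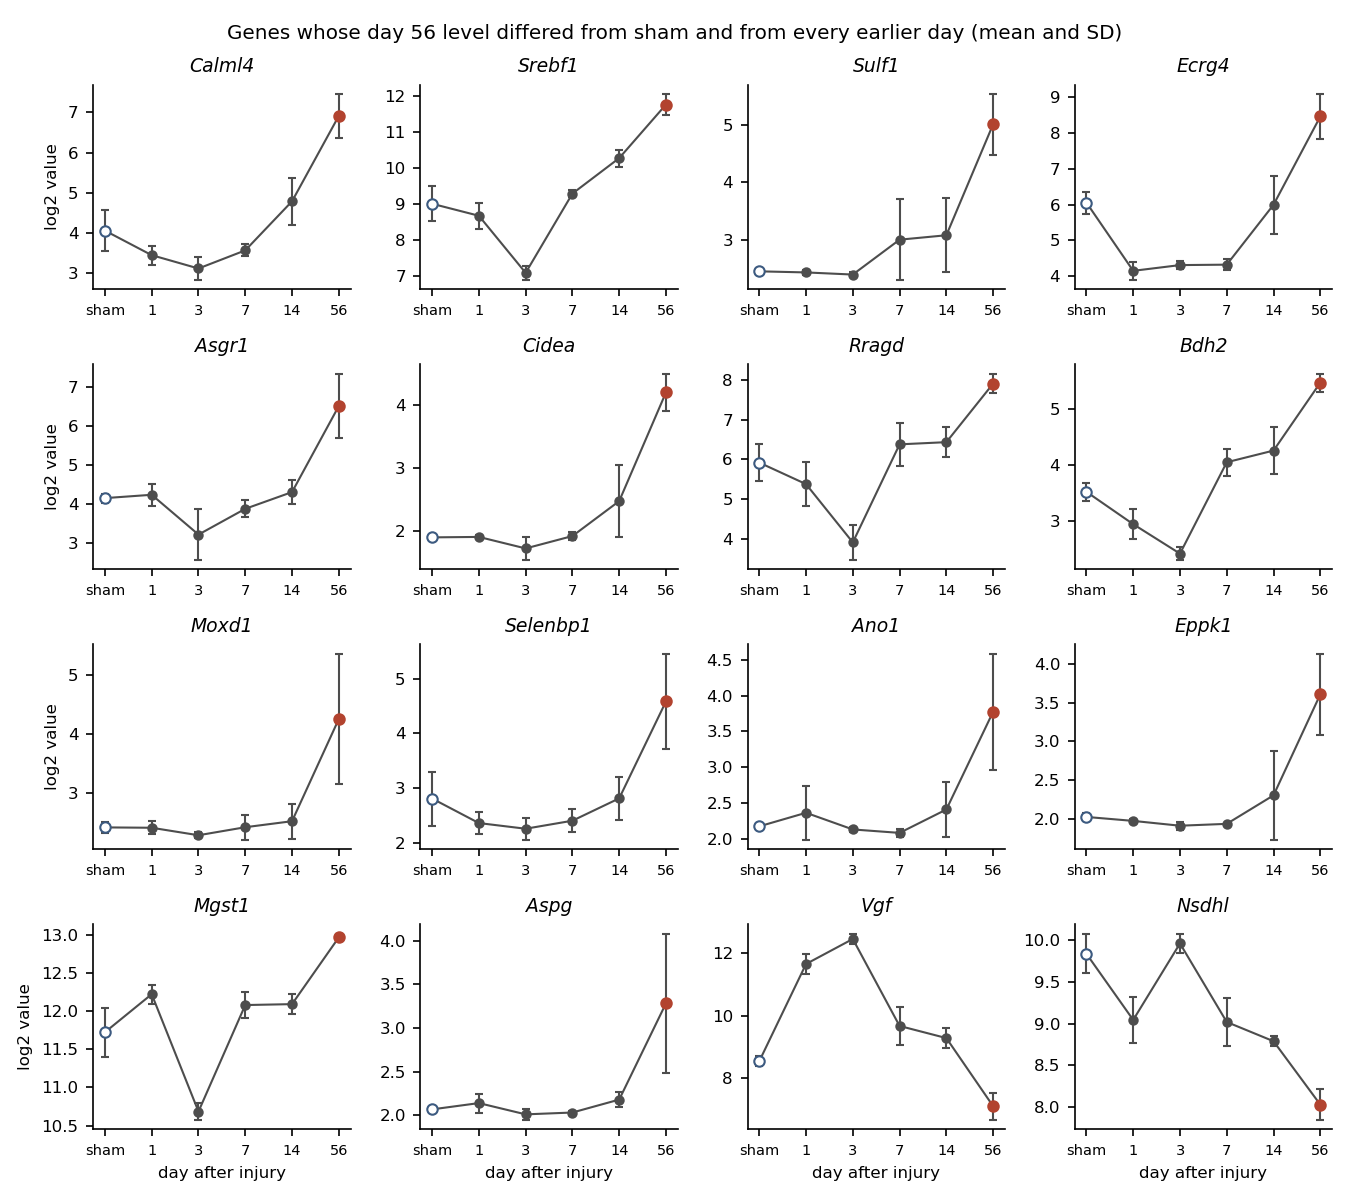
Mean log2 value (points) and SD (bars, 4 rats each) of the 16 genes whose day 56 level differed from sham and from each earlier day, at sham and on days 1, 3, 7, 14 and 56, evenly spaced. The panels of the 14 higher genes end at their highest value and those of Nsdhl and Vgf end at their lowest.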

How the data were processed

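Total RNA was extracted with Trizol, amplified with the Ambion WT kit and hybridised to Affymetrix whole-genome rat arrays, one per rat, and 24 arrays in 6 groups of 4 were used. The deposited values are log2 expression summaries of 31099 probe sets that the authors made with GCRMA and affy 1.12.2. The methods state a separate pre-processing of each time point, which may shift groups against each other, so quantile normalization of all arrays was run as an alternative. Arrays carry no read depth, and 4 arrays a group limit the precision.

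Probe sets were named from the platform annotation, checked against RefSeq without changing a symbol: 20832 had 1 symbol, 436 several and 9831 none, and 14218 genes were each represented by their one-symbol probe set of highest mean level across the arrays. For 33 genes, probe sets were called in both directions. A linear model over the 6 groups was fitted with limma 3.58.1 in R 4.3.3 (18 residual degrees of freedom) to all probe sets, with Benjamini-Hochberg adjustment across the 20832 with 1 symbol and calls at 0.05. The same fit was tested on simulated data. By the rule, genes named were the 15 largest non-overlapping changes each way, the 10 largest each way against day 14, genes apart on day 56 from all groups, and, as examples, defining members of a list or up to 6 of its most changed called members. The gene groups came from 62 lists (1147 of 1336 symbols measured). The comparison, lists and tests were chosen with earlier results of these data known. The labels did not say whether replicate numbers paired the rats. Alternatives tried were the variance model, normalization, scaling, a filter on dim probe sets, a replicate block, averaging all probe sets of a gene, the methods' t-test, and leaving out each array.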

Additional observations from a re-analysis of the deposited data

Results flagged for a closer look

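In groups of 4 rats, one rat lay far from the other 3 (its gap to the nearest exceeded Dixon's critical value) in 40 of the 588 groups of values examined (6.8%). Chance alone flags about 1 in 20 of independent groups. These groups share the same 8 rats, so the shares cannot be compared. Sham replicate 1 held 8 of them. It was low for Cxcl16 (3.51, against 8.17 to 8.45 in the other sham rats), RT1-Da (7.07, others 9.36 to 9.46), Cd74 (8.65, others 10.38 to 10.61), Itgb2 (4.64, others 7.23 to 7.66), Col3a1 (8.76), C3 (10.33) and Ptgds (14.52), and high for Fabp4 (3.33). Sham replicate 4 was high for Mx1 (7.57, others 4.76 to 5.04), Irf7 (6.88, others 5.64 to 5.8), Ifit3 (4.9), Plbd1 (2.38, under the control level), C3ar1 (5.3) and Abcg1 (10.85), and low for Scd (8.64). Sham replicate 3 was low for Apoc1 (2.29, others 5.09 to 5.64), Egr2 (3.57), Casp4 (3.42) and Folr2 (2.16, under the control level) and high for Nefh (14.2), Scn1a (11.58) and Slc12a5 (12.21), and sham replicate 2 was high for Moxd1 (2.56).

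Among the injured rats, day 56 replicate 3 was low for Cd300c2 (4.19, against 10.74 to 11.62) and Loxl2 (6.72) and high for Slc32a1 (3.94), Grin1 (4.01), Entpd3 (2.8), P2rx4 (9.97) and Ch25h (9.04). Day 56 replicate 4 was high for Gjb2 (11.98, others 10.05 to 10.12) and Ms4a6bl1 (10.2) and low for Slc1a2 (2.82) and Pecam1 (5.74). Replicate 2 was low for Abca1 (12.37) and Postn (3.06) and high for Tm7sf2 (5.37), and replicate 1 was low for Lpl (7.62) and Trh (5.31) and high for Cd3g (3.21).

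The level differed between day 56 and day 14 for 30 of the named genes (limma, adjusted p from 5.13e-06 to 0.0474). The values in brackets are day 56 minus day 14. The level was higher on day 56 for Coch (4.37), Ecrg4 (2.46), Asgr1 (2.2), Calml4 (2.13), Sulf1 (1.93), Selenbp1 (1.78), Cidea (1.74), Moxd1 (1.73), Inhbb (1.67), Aox1 (1.51), Srebf1 (1.49), Rragd (1.47), Dbp (1.47), Ano1 (1.36), Eppk1 (1.3), Bdh2 (1.22), Aspg (1.1), Per3 (1.1) and Mgst1 (0.87). Of these, Sulf1, Selenbp1, Cidea, Moxd1, Inhbb, Aox1, Ano1, Eppk1 and Aspg had a day 14 mean at the control level, so that their differences carry no exact size. The level was lower on day 56 for Postn (-4.8), Tnc (-4.31), Cdk1 (-2.39), Tnfrsf12a (-2.34), Ccnb2 (-2.31), Trh (-2.3), Vgf (-2.19), Mmp2 (-1.9), Tlcd3a (-1.03), Hacd1 (-1.02) and Nsdhl (-0.76).

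Probe sets outside the gene table carried differences as well: 1578 of 9780 with no symbol and 164 of 436 with several symbols were called between day 56 and sham.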

How the results depend on the processing

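The day 56 against sham counts held: 4169 to 4820 genes were called under the other models, scalings and filters, against 4563, and 1803 to 2034 with a change of at least 1, against 2008. Leaving out one day 56 or sham rat gave 3907 to 4386 and 1832 to 2072. Without adjustment the methods' t-test at p under 0.05 gave 5629 and 2089, and with Benjamini-Hochberg adjustment 4169 and 1946. Between 48.5% and 53.2% of calls were higher genes under all settings, and the median change over all genes lay between -0.026 and 0.038. The later contrast was less stable. Against day 14, 31 genes passed with a change of at least 1, against 5 with only the compared groups fitted, 19 with the replicate block, 2 by the methods' t-test with adjustment and 116 without, and 15 to 35 without one rat (15 without day 14 replicate 1, 18 without day 14 replicate 2 and 20 without day 56 replicate 4). The 16 genes apart on day 56 became 2 with only the compared groups fitted (1 shared), 0 by the adjusted t-test, 70 by the unadjusted one (16 shared), and 9 to 20 without one rat (9 without day 14 replicate 1). The cause of these differences was not tested.

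Of 226 called genes of the text followed through the alternatives, 29 lost the call under at least one, 22 of them without one rat. No called change reversed direction. The 4959 combinations of gene and setting covered 294 genes of the text, and only those called could be counted as reversed. The adjusted t-test ended 14 of the calls, and the replicate block and the fit of only the compared groups 7 each. Deviations of day 56 and sham rats of the same replicate number correlated at -0.183 to 0.101, which cannot settle whether the numbers mark a pairing. The block gave 4451 called genes. Of 1488 counts of called list members under the alternatives, 65 moved by over 1.5 times, 53 of them without one rat. Leaving out dim probe sets left 13 potassium channels called lower, against 20, and 3 calcium channels, against 7. The 14 neuropeptide genes called lower became 9 without day 56 replicate 2 or sham replicate 3 and 8 without day 56 replicate 4. The 5 meninges genes called higher became 3 without day 56 replicates 1 or 4 or sham replicate 1, and the 5 small leucine-rich proteoglycans 2 without day 56 replicate 4 or sham replicate 1. The 6 class II genes became 3 without day 56 replicate 1 or sham replicate 1. Signal over background limits 349 called genes with day 56, sham or both at the control level. Where only day 56 or only sham was at that level, the fold difference is a bound. In all, 3782 genes were at that level in both groups, some called ones among them, and their differences carry no size.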

Other observations

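Several further gene groups were counted, to be read against 16.1% of all genes higher and 15.9% lower. Of 44 axon guidance genes 13 were lower and 6 higher (median -0.04). Plxnc1, a semaphorin receptor that leukocytes also carry, averaged 8.94 in the day 56 rats and 3.08 in the sham rats, at least 51.5-fold higher (adjusted p = 1.06e-07, limma). Plxna1 (2.10 ± 0.37), Nrp1 (1.76 ± 0.39), a co-receptor of secreted semaphorins, and the ligand Sema3c (1.86 ± 0.24) rose, while the repellent Slit2 (-1.14 ± 0.27), the ephrin receptor Epha5 (-1.90 ± 0.32) and Sema4d (-1.70 ± 0.39) fell. Of 23 genes of TGF beta and BMP signalling 5 rose and 2 fell: Tgfb1 (2.29 ± 0.39), its receptor Tgfbr1 (1.81 ± 0.18), the latency protein Ltbp1 (2.41 ± 0.47), Smad3 (1.78 ± 0.24) and Id3 (1.22 ± 0.20) were higher, and the inhibitory Smad7 (-1.16 ± 0.29) and the activin chain Inhba (-2.17 ± 0.43) lower. Of 22 purine receptor and ectonucleotidase genes 6 rose and 2 fell. P2rx4, an ATP-gated channel of activated microglia (2.73 ± 0.53), and P2ry2 (3.02 ± 0.60) were higher, Entpd3, an ectonucleotidase of neurons, was at the control level in the day 56 rats (2.44, against 5.12 in the sham rats), and P2rx7 was at that level in both groups.

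Of 25 glycolysis and lactate genes 6 rose and 7 fell. Hk2, the inducible hexokinase (3.29 ± 0.43), and the lactate transporter Slc16a3 (2.75 ± 0.66) were higher, and the neuronal enolase Eno2 (-1.78 ± 0.26) and the neuronal glucose transporter Slc2a3 (-1.30 ± 0.20) lower. Of 24 apoptosis regulators 11 rose and none fell, with the death promoter Bcl2l11 (4.21 ± 0.50) and the inflammatory caspases Casp1 (2.92 ± 0.50) and Casp4 (2.39 ± 0.27) beside the protective Bcl2a1. Acp5, the tartrate-resistant phosphatase of osteoclasts and macrophages (4.35 ± 0.58), rose alone among 13 bone and cartilage genes, of which the bone markers Ibsp and Bglap were at the control level in both groups. The same held for the defining sensory ganglion markers Trpv1, P2rx3, Scn10a and Scn11a, for the fat cell markers Adipoq, Plin1 and Cidec, and for the muscle markers Ckm and Mb.

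Dbp and Per3, which the body clock controls, were called between day 56 and day 14; they were chosen for this after their values were seen, outside the rule for named genes, and clock genes were not examined as a list. Dbp had 8.40, 8.87, 8.17 and 8.28 in the day 56 rats and 8.39, 8.24, 8.67 and 8.31 in the sham rats, so that these groups overlapped, and it averaged 6.96 on day 14 (a difference of 1.47 from day 14, limma adjusted p = 0.00233). Per3 averaged 7.14 in the day 56 rats, 6.04 on day 14 (1.10, adjusted p = 0.0218) and 6.19 in the sham rats (0.95, adjusted p = 0.0012). The hour of tissue collection was not given in the sources used here, and its part in these differences was not tested.

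Of the called probe sets with no gene symbol, 669 were higher and 909 lower in the day 56 rats (16.1% of those tested), and of those with several symbols 110 were higher and 54 lower (37.6%).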
